A study of Danio rerio with 8 samples.

Results

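The genes described here carry, make, clear and sense retinoids, the vitamin A derivatives. They are 9 zebrafish genes of the 31901 in the deposited count table, taken by symbol: the carriers and uptake genes rbp4, stra6 and crabp2a, the retinal enzymes aldh1a2 and dhrs3a, the retinoic acid hydroxylases cyp26b1 and cyp26c1, and the receptors raraa and rarga. The list was drawn up by role with results of these libraries known, and rbp4 was selected on its measured abundance in the same 8 libraries, so its level is given as a description with no test.

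RNA was sequenced from GFP-positive cells sorted from larvae of the line BAC(pdgfrb:Gal4ff)ncv24;UAS:GFP, in which regulatory sequence of pdgfrb, a platelet-derived growth factor receptor gene, drives Gal4ff and thereby GFP. The lesioned group held 4 libraries from larvae whose spinal cord had been mechanically injured 1 day earlier, and the unlesioned group 4 libraries from uninjured larvae of the same line. All larvae were 4 days old, counted from fertilization, and both groups went through trypsin dissociation and sorting. The labels describe the cells as myoseptal (from the connective tissue sheets between muscle blocks) and perivascular, and do not state how many larvae or clutches stand behind a library, so a p-value here reflects only how far these libraries scatter, and that scatter may be technical.

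Retinol circulates bound to Rbp4, enters cells through the membrane receptor Stra6, is oxidized to retinal and then, by enzymes such as Aldh1a2, to retinoic acid. Dhrs3 enzymes turn retinal back into retinol, Crabp proteins bind retinoic acid in the cytoplasm, and Cyp26 enzymes oxidize it for removal. Retinoic acid acts through nuclear receptors of the RAR family, which bind DNA together with RXR partners. In fish embryos Aldh1a2 of the trunk mesoderm supplies retinoic acid to the developing hindbrain and spinal cord.

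Total counts were 19552807 to 25358885 per library. Libraries 3 and 4 of both groups held 13.8% to 16.8% mitochondrial counts and 64 to 158 counts of synthetic spike-in RNA, against 8.91% to 10.2% and 0 to 3 counts in libraries 1 and 2. The labels name no batch, and values within libraries 1 and 2 and within libraries 3 and 4 are given beside the main results. No pairing by replicate number is stated either, and the data did not tell numbers 1 and 2 apart. Comparisons at each number are therefore descriptions. All 12 fibroblast and myoseptal marker genes were detected, with a summed level of 6913 to 11073 TPM (counts divided by gene length and scaled to a common total per library) in the lesioned and 5276 to 11954 TPM in the unlesioned libraries. The 8 mural cell markers summed to 3647 to 6796 TPM in the lesioned and 5797 to 19599 TPM in the unlesioned libraries, and pdgfrb had 31.4 to 65.3 and 44.3 to 60.0 TPM. Markers of other cells were read as well. Epidermal markers summed to 421 to 3247 TPM in the lesioned and 156 to 4002 TPM in the unlesioned libraries, and muscle markers to 470 to 4214 and 771 to 1963 TPM.

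The 9 genes lay far apart in level. The carrier gene rbp4 averaged 1938 TPM over the 8 libraries and ranked 59 among all genes. The cytoplasmic carrier crabp2a followed with 535 TPM at rank 261, then aldh1a2 (65.5 TPM), dhrs3a (48.5 TPM), raraa (30.8 TPM), cyp26b1 (19.3 TPM) and rarga (17.7 TPM). The last places were held by cyp26c1 (1.24 TPM, rank 14165) and stra6 (0.560 TPM, rank 16814). The steps from rbp4 to crabp2a, from crabp2a to aldh1a2 and from rarga to cyp26c1 held in 8 of 8 libraries with ranges that did not overlap. Since rbp4 was selected on its abundance in these libraries, its place above crabp2a is a description only. The neighbours from aldh1a2 down to rarga overlapped in their ranges and kept their order in only 5 to 7 of 8 libraries. The same held for cyp26c1 and stra6 (5 of 8). The order within each such pair of neighbours thus lies within the spread between libraries. Genes further apart in this order could still be separate, as were aldh1a2 (33.9 to 111 TPM) and rarga (11.6 to 24.9 TPM).

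**Figure D1:**
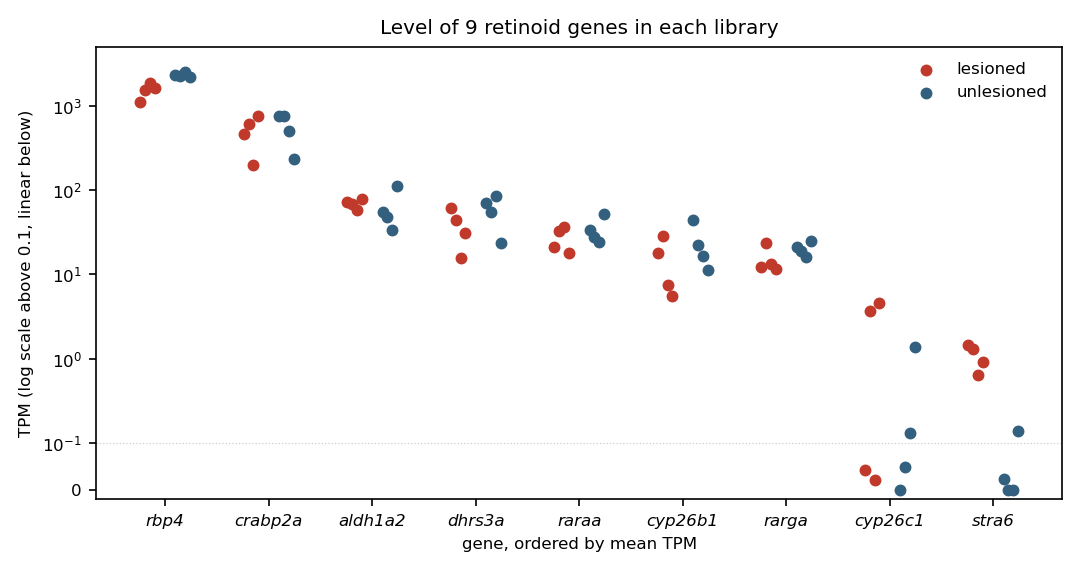
Level of each gene in TPM in each of the 8 libraries, on an axis that is logarithmic above 0.1 and linear below; each point is 1 library, lesioned in red left of unlesioned in blue. The points of rbp4 lie above those of all other genes, between 1105 and 2549 TPM, and those of stra6 lie between 0.643 and 1.47 TPM in the lesioned and between 0 and 0.139 TPM in the unlesioned libraries.

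The lesion comparison asks how these genes differ in the sorted cells 1 day after injury. Differences between the groups are log2 fold changes, positive where lesioned was higher, each with the standard error (SE) from edgeR. Of the 8 genes tested, 0 passed an adjusted p of 0.05 in edgeR's quasi-likelihood test with Benjamini-Hochberg adjustment over all genes, where 3 of all 15759 genes tested passed (0.0190%, 0.0190% higher and 0% lower). The gene stra6 was kept for testing only through its lesioned libraries and so had to differ, and it is left out of the counts that follow. At an unadjusted p under 0.05 in edgeR was 1 of the other 7, rbp4, which was lower, against 11.6% of all genes, 6.07% higher and 5.48% lower. With the replicate number as a block, or with a batch term for libraries 1 and 2 against 3 and 4, cyp26b1 was under that p as well (adjusted p = 0.270 and 0.256 in edgeR). The share of all genes under that p in these alternative fits was not computed, so cyp26b1 there has no background to be read against. DESeq2 called 0 of these 7 genes, against 6.40% of all genes with an adjusted p there, and limma voom called 0, against 0.0190%. Of the 7 genes 1, again rbp4, had groups that did not overlap, with every lesioned library lower. Over all genes tested the groups did not overlap for 9.23%, with the lesioned libraries higher for 5.32% and lower for 3.91%. The ninth gene, cyp26c1, was not tested, since it had 10 counts or more in only 3 libraries.

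Among the carriers, rbp4 encodes the retinol carrier of blood plasma, a secreted protein made chiefly by the liver in mammals. It lies on chromosome 12 from 5115929 to 5120339, minus strand (ENSDARG00000101199, GRCz11 as are all coordinates here). Its level was 853, 1112, 1672 and 1219 CPM (counts scaled to a common library total with TMM factors, for comparing libraries within a gene) in lesioned 1 to 4, and 1849, 1873, 2524 and 1835 CPM in unlesioned 1 to 4. The highest lesioned library, number 3, stayed below the lowest unlesioned library, number 4. It follows from this that the lesioned library was the lower one at each of the 4 replicate numbers. The means were 1214 ± 342 CPM in the lesioned and 2020.1 ± 336 CPM in the unlesioned group (SD, n = 4 each). On the log2 scale edgeR put lesioned over unlesioned at -0.73 ± 0.24 (SE), with an adjusted p of 0.267. Within libraries 1 and 2 the difference was -0.92, and within libraries 3 and 4 it was -0.53.

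As a share of all counts rbp4 took 0.0928% to 0.156% in the lesioned and 0.177% to 0.207% in the unlesioned libraries. In such bulk samples fewer cells of a type and less RNA per cell cannot be told apart. All 8 mural markers had negative log2 fold changes too, with a median of -1.08 beside -0.04 over all genes tested. Their most abundant gene was acta2, a smooth muscle actin. It averaged 2593 ± 782 TPM in the lesioned and 6096 ± 3081 TPM in the unlesioned libraries (SD, n = 4 each). The groups overlapped for acta2 (adjusted p = 0.212 in edgeR). Of the 12 fibroblast and myoseptal markers 8 were negative and 4 positive, with a median of -0.27. The lists of other cells had few tested genes. Medians were -0.59 for endothelial markers (2 positive, 2 negative), -0.63 for those of mesothelium and kidney (1 and 3) and 1.36 for those of muscle (7 and 1). They were -3.54 for glia and neural progenitors (1 and 4), -0.72 for neurons (1 and 4) and -1.28 for erythroid markers (1 and 2). Pigment cell markers had -0.86 (0 and 2), epidermal ones -0.01 (5 and 5) and notochord ones 0.29 (4 and 3). Leukocyte markers had 0.42 (1 and 1), and those of liver and yolk 0.04 (3 and 1). Summed glia and neural progenitor markers overlapped, at 12.3 to 50.2 TPM in the lesioned and 21.9 to 273 TPM in the unlesioned libraries. The 273 TPM stood in unlesioned 2, and the next highest unlesioned library had 64.0 TPM. Summed neuron markers overlapped as well, at 33.6 to 86.1 TPM in the lesioned and 38.4 to 45.3 TPM in the unlesioned libraries. The part of any of these cells in the lower rbp4 level was not tested. The sum of the 4 erythroid markers separated the groups at a low level. It was 6.16 to 9.03 TPM in the lesioned and 12.5 to 20.6 TPM in the unlesioned libraries. Of the 3 erythroid genes tested, only 1 had groups that did not overlap in CPM. It was lower, as were 3.91% of all genes in that way. Relative to pdgfrb, rbp4 stood at 22.2 to 51.6 times its TPM in the lesioned and 37.6 to 53.9 times in the unlesioned libraries. These ranges overlapped through lesioned 4 alone, where pdgfrb had its lowest level (31.4 TPM). In lesioned 1, 2 and 3 the ratio was 22.2, 27.0 and 28.7. Liver and yolk markers were at a trace level, with 14 genes summing to 4.66 to 12.5 TPM in the lesioned and 5.93 to 9.73 TPM in the unlesioned libraries. The hepatocyte gene fabp10a had 1 count in all libraries together. The gene ttr, whose product transthyretin binds Rbp4 in mammalian plasma, had 0 to 12 counts per library.

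The receptor that imports retinol from Rbp4 was nearly unread in the sorted cells of uninjured larvae. Counts of stra6 (ENSDARG00000051874, chromosome 25 from 22571475 to 22634675, plus strand) were 65, 56, 31 and 39 in lesioned 1 to 4, and 1, 0, 0 and 6 in unlesioned 1 to 4. Every lesioned library thus held at least 31 counts and no unlesioned library more than 6. The levels were 2.77, 2.30, 1.40 and 1.69 CPM in lesioned 1 to 4, and 0.0456, 0, 0 and 0.282 CPM in unlesioned 1 to 4. Lesioned over unlesioned stood at 4.53 ± 1.37 (SE) on the log2 scale, with an adjusted p of 0.230 by edgeR. The value was 6.43 within libraries 1 and 2, 3.46 within libraries 3 and 4, and 6.57 when unlesioned 4 was left out. The gene met the minimum count for testing only through its lesioned libraries, and a gene kept in that way had to differ between the groups. The level in the lesioned libraries was still low, at 1.08 ± 0.370 TPM (SD, n = 4). Retinal pigment epithelium is a tissue known for stra6. The 8 markers of it and of pigment cells summed to 19.6 to 44.3 TPM in the lesioned and 40.3 to 147 TPM in the unlesioned libraries, and its defining gene rpe65a had 12, 21, 0 and 0 counts in lesioned 1 to 4, and 0, 1, 0 and 0 in unlesioned 1 to 4. The part of these cells in the stra6 counts was not tested. The related gene stra6l, a retinol transporter, had 0 to 2 counts in the lesioned and 0, 0, 12 and 74 counts in unlesioned 1 to 4.

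The carrier of retinoic acid in the cytoplasm, crabp2a (ENSDARG00000073978, chromosome 16 from 14383479 to 14397003, minus strand), had 580, 722, 289.95 and 931 CPM in lesioned 1 to 4, and 983, 1037, 811 and 315 CPM in unlesioned 1 to 4. The groups overlapped, since unlesioned 4 lay below lesioned 1, 2 and 4, and lesioned 4 lay above unlesioned 3 as well. Lesioned 3 and unlesioned 4 were each far below the rest of their group. The means were 631 ± 269 CPM in the lesioned and 787 ± 329 CPM in the unlesioned group (SD, n = 4 each), with a difference of -0.32 ± 0.42 (SE, log2) that did not pass in edgeR (adjusted p = 0.859). It was -0.64 within libraries 1 and 2, 0.20 within libraries 3 and 4, and -0.13 where library size alone set the scaling. Leaving out 1 library moved it to -0.08 without lesioned 3, -0.57 without lesioned 4, -0.18 without unlesioned 1, -0.16 without unlesioned 2 and -0.58 without unlesioned 4.

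**Figure D2:**
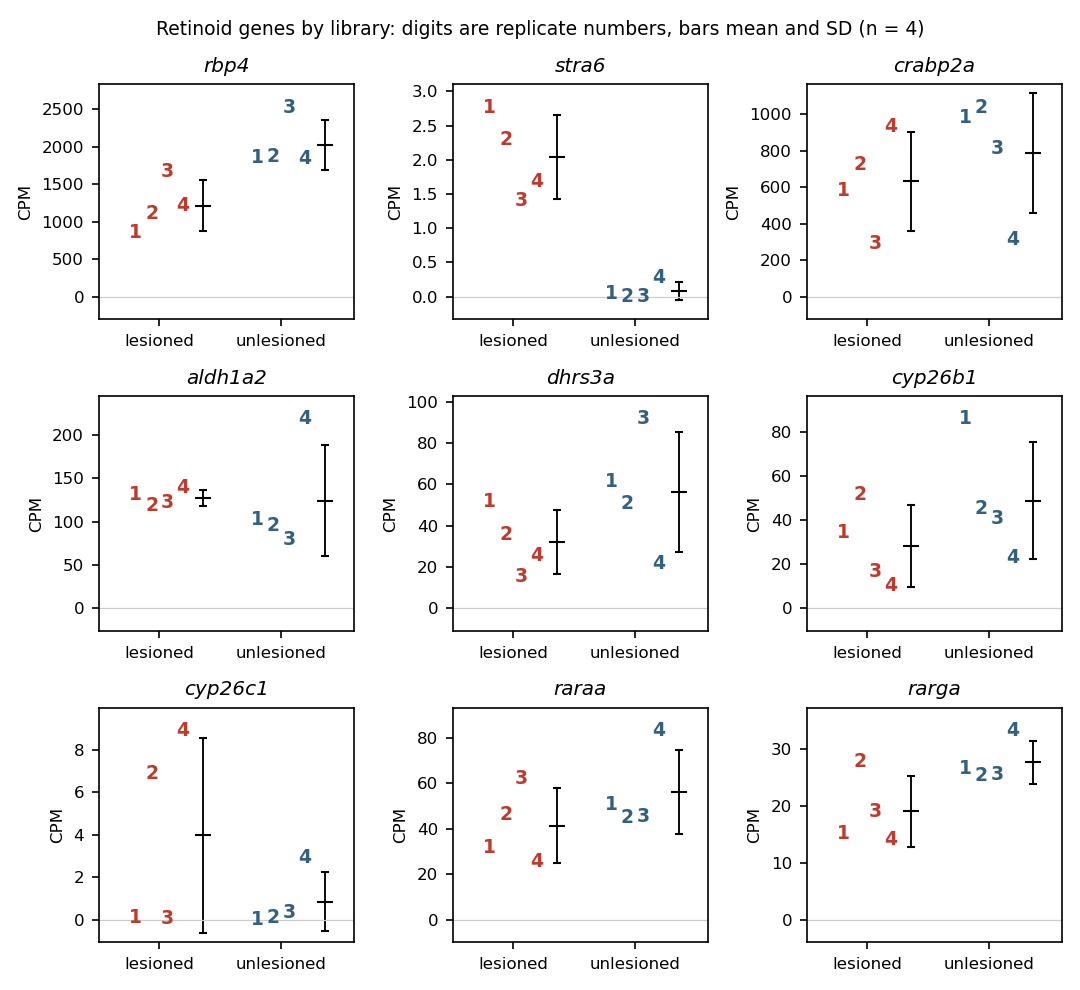
CPM of each of the 9 genes, with lesioned left of unlesioned; each digit is 1 library placed at its value and printed as its replicate number, and the bar gives mean and SD (n = 4). Only rbp4 and stra6 show groups that do not overlap, where 9.23% of all genes tested do so. The gene stra6 was kept for testing only through its lesioned libraries and so had to differ. Unlesioned 4 is the highest library of its group for stra6, aldh1a2, cyp26c1, raraa and rarga and the lowest for rbp4, crabp2a, dhrs3a and cyp26b1.

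Of the retinal enzymes, aldh1a2 (ENSDARG00000053493, chromosome 7 from 30326184 to 30367650, minus strand) makes retinoic acid from retinal. It had 131, 118, 122 and 139 CPM in lesioned 1 to 4, and 102, 95.3, 79.5 and 219 CPM in unlesioned 1 to 4. The lesioned libraries lay close together, with a coefficient of variation of 7.32%, against 51.5% in the unlesioned group. Each lesioned library was above unlesioned 1, 2 and 3, while unlesioned 4 was above all others. The means were 128 ± 9.34 CPM in the lesioned and 124 ± 63.8 CPM in the unlesioned group (SD, n = 4 each). The difference in edgeR was 0.04 ± 0.31 (SE, log2; adjusted p = 0.985), and it was 0.46 (adjusted p = 0.461) with unlesioned 4 left out. It was 0.33 within libraries 1 and 2 and -0.13 within libraries 3 and 4.

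The gene dhrs3a encodes a reductase of retinal, and in zebrafish its transcription is known to respond to retinoic acid. It lies on chromosome 23 from 21663631 to 21674679, plus strand (ENSDARG00000044982). It had 51.8, 35.6, 15.2 and 25.7 CPM in lesioned 1 to 4, and 61.3, 50.5, 91.7 and 21.4 CPM in unlesioned 1 to 4. As with crabp2a, the lowest library of each group was lesioned 3 or unlesioned 4, and the groups overlapped. edgeR gave a difference of -0.81 ± 0.47 (SE, log2; adjusted p = 0.575). It was -0.36 within libraries 1 and 2, -1.39 within libraries 3 and 4, and -0.47 with unlesioned 3 left out. The paralog dhrs3b stood the other way, at 8.49 ± 3.86 TPM in the lesioned and 4.47 ± 2.67 TPM in the unlesioned group (log2 fold change 0.81 ± 0.58, adjusted p = 0.683 in edgeR). Per length, dhrs3a was 3.59 to 5.99 times as abundant as dhrs3b in the lesioned libraries and 7.95 to 40.8 times in the unlesioned libraries. This ratio was chosen after the values of both genes were seen.

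Of the 3 cyp26 genes, whose enzymes clear retinoic acid, cyp26b1 (ENSDARG00000077121, chromosome 7 from 25323742 to 25348597, plus strand) had the highest mean TPM over the 8 libraries. It had 34.2, 51.7, 16.5 and 10.3 CPM in lesioned 1 to 4, and 86.1, 45.5, 40.6 and 23.2 CPM in unlesioned 1 to 4. The lesioned library was lower at 3 of the 4 replicate numbers, and the groups overlapped. With unlesioned 1 and 2 exchanged, which the data did not tell apart, it would be lower at each number. The difference by edgeR was -0.79 ± 0.53 (SE, log2; adjusted p = 0.642), with -0.62 within libraries 1 and 2 and -1.20 within libraries 3 and 4. It was -1.26 without lesioned 2, -0.52 without lesioned 4 and -0.37 without unlesioned 1. Its exons share 5.65% of their bases with an antisense gene, and reads there cannot be assigned by strand.

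The paralog cyp26c1 (ENSDARG00000056029, chromosome 17 from 19522856 to 19535328, minus strand) was read in a few libraries only. It had 2, 167, 1 and 206 counts in lesioned 1 to 4, and 0, 2, 7 and 62 counts in unlesioned 1 to 4. High and near-zero libraries thus occurred in both groups. It shares 6.57% of its exon bases with a gene on the opposite strand. The third of these enzymes, cyp26a1, a well known retinoic acid response gene, had 6.01 ± 5.48 TPM in the lesioned and 3.65 ± 2.96 TPM in the unlesioned group (log2 fold change 0.68 ± 0.90, adjusted p = 0.859 in edgeR). In lesioned 3 cyp26a1 had 13.8 TPM, above the 7.50 TPM of cyp26b1 there, and it had at most 5.59 TPM in the rest of the lesioned group.

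Set against each other per length, aldh1a2 exceeded cyp26b1 in all 8 libraries. The ratio of their TPM was 3.98, 2.37, 7.69 and 13.9 in lesioned 1 to 4, and 1.23, 2.18, 2.03 and 9.78 in unlesioned 1 to 4. It was higher in the lesioned library at each number, while the groups overlapped, and no test was made of it. With all 3 cyp26 genes summed, the ratio was 3.03, 1.91, 2.70 and 6.74 in lesioned 1 to 4, and 1.15, 1.61, 1.71 and 8.26 in unlesioned 1 to 4, so that the order turned at number 4.

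The receptor raraa (ENSDARG00000056783, chromosome 12 from 10952794 to 11157237, plus strand) had 31.8, 46.1, 62.3 and 25.6 CPM in lesioned 1 to 4, and 50.9, 44.99, 45.6 and 83.4 CPM in unlesioned 1 to 4. The lesioned library was higher at 2 numbers and lower at 2, a count that depends on how numbers 1 and 2 are paired. The edgeR difference was -0.44 ± 0.33 (SE, log2; adjusted p = 0.7), with -0.30 within libraries 1 and 2 and -0.51 within libraries 3 and 4. It was -0.71 without lesioned 3, -0.26 without lesioned 4 and -0.19 without unlesioned 4. The receptor rarga (ENSDARG00000034117, chromosome 23 from 35847200 to 35963735, plus strand) had 15.2, 27.8, 19.1 and 14.1 CPM in lesioned 1 to 4, and 26.6, 25.2, 25.5 and 33.3 CPM in unlesioned 1 to 4. Apart from lesioned 2, the lesioned libraries lay below all unlesioned ones. For rarga edgeR gave -0.54 ± 0.30 (SE, log2; adjusted p = 0.561), with -0.27 within libraries 1 and 2 and -0.77 within libraries 3 and 4.

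These 2 genes had the highest mean levels among the retinoid receptors. Per length, raraa made up 44.7% to 61.4% of the summed TPM of the 4 RAR genes in the lesioned and 48.5% to 64.7% in the unlesioned libraries, and rarga 22.5% to 34.8% and 30.8% to 35.8%. The RAR genes summed to 52.5 ± 13.5 TPM in the lesioned and 61.5 ± 15 TPM in the unlesioned group (SD, n = 4 each). The paralog rarab had 10.1 ± 1.18 TPM in the lesioned and 6.45 ± 3.64 TPM in the unlesioned group (log2 fold change 0.53 ± 0.40, adjusted p = 0.698 in edgeR). The paralog rargb was at trace level, with at most 9 counts in a library. The 6 RXR genes summed to 29.1 ± 4.61 TPM in the lesioned and 30.2 ± 9.41 TPM in the unlesioned group. The most abundant of them, rxraa, had 10.1 ± 6.06 and 9.37 ± 3.52 TPM, and rxrgb 6.49 ± 1.54 and 10.04 ± 2.97 TPM (log2 fold change -0.71 ± 0.39, adjusted p = 0.543 in edgeR). The partner genes rxrga with 6.23 and 7.19 TPM and rxrba with 5.06 and 2.40 TPM, lesioned before unlesioned, came next, and rxrab and rxrbb stayed under 1 TPM in both group means.

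**Figure D3:**
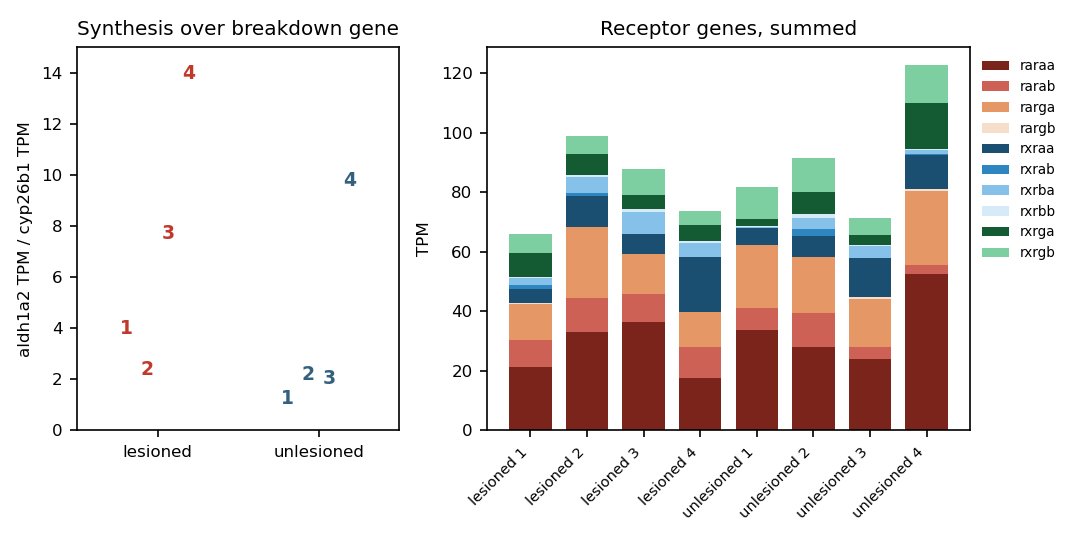
Left, ratio of aldh1a2 to cyp26b1 in TPM, each digit 1 library printed as its replicate number; right, stacked bars of the TPM of 4 RAR and 6 RXR genes in each library, the lesioned libraries left of the unlesioned ones. The ratio is highest in library 4 of both groups (13.9 in lesioned, 9.78 in unlesioned), and raraa is the largest receptor segment in every library but lesioned 4, where rxraa is (18.5 TPM, against 17.7 TPM of raraa).

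The rest of the retinoid pathway gave the setting of these genes. Of 113 symbols listed by role, 101 were matched to the table, 75 had enough counts to be tested, and 0 were called in either direction by edgeR or limma voom. DESeq2 called 0 of the 46 to which it gave an adjusted p. At an unadjusted p under 0.05 in edgeR 1 of the 75 was higher and 7 were lower, and the groups did not overlap for 1 higher gene and 3 lower ones, to be read against the shares over all genes given above. The median log2 fold change of the 75 was -0.11, beside -0.04 over all genes tested. With library size as the only scaling, the median of all genes stood at 0.12 and that of the 75 at 0.04. The fold changes in the text use TMM scaling, and the sign of each of the 8 tested genes was the same under both.

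Among the other carriers and uptake genes, 0 of 7 tested were called and 3 were lower at an unadjusted p under 0.05 in edgeR, where 5.48% of all genes were. The most abundant was rbp7b, a cellular retinol-binding protein gene, with 233 ± 32.4 TPM in the lesioned and 235 ± 67.5 TPM in the unlesioned group (log2 fold change -0.15 ± 0.27, adjusted p = 0.903 in edgeR). The lowest adjusted p was that of crabp1b, another cytoplasmic carrier of retinoic acid. It had 78.9, 83.8, 45.9 and 59.5 TPM in lesioned 1 to 4, and 156, 195, 67.0 and 87.2 TPM in unlesioned 1 to 4. The lesioned library was lower at each number, and the log2 fold change was -1.03 ± 0.33 (adjusted p = 0.249 in edgeR). The groups overlapped in TPM but not in CPM, with 24.0 to 35.7 CPM in the lesioned and 38.8 to 94.8 CPM in the unlesioned libraries. Over all genes tested 3.91% were lower without overlap in CPM.

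Among the other synthesis enzymes, 0 of 19 tested were called, 14 had negative log2 fold changes (52.3% of all genes tested had) and 0 had an unadjusted p under 0.05 in edgeR. With library size as the only scaling 11 of the 19 were negative, beside 43.2% of all genes, and the median moved to -0.09, against -0.24 with TMM. The most abundant was rdh10a, which oxidizes retinol to retinal, the step before aldh1a2. It had 194, 288, 48.8 and 77.6 TPM in lesioned 1 to 4, and 375, 399, 76.3 and 172 TPM in unlesioned 1 to 4. Both groups were lower in libraries 3 and 4 than in 1 and 2, the lesioned library was lower at each number, and the log2 fold change was -0.87 ± 0.57 (adjusted p = 0.632 in edgeR). The lowest adjusted p was that of adh5, an alcohol dehydrogenase (182 ± 17.2 TPM in the lesioned and 205 ± 33.5 TPM in the unlesioned group, log2 fold change -0.30 ± 0.18, adjusted p = 0.596 in edgeR). In CPM its groups did not overlap, with 111 to 124 in the lesioned and 126 to 163 in the unlesioned libraries, where 3.91% of all genes were lower in that way. The alternative retinal dehydrogenase gene aldh1a3 had at most 8 counts in a library.

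Receptor cofactors gave 0 of 17 called, where 0.0190% of all genes tested were, with a median log2 fold change of 0.05 beside -0.04 over all genes. The most abundant, hdac3, a histone deacetylase of corepressor complexes, had 40.2 ± 10.3 TPM in the lesioned and 31.3 ± 12.9 TPM in the unlesioned group (log2 fold change 0.25 ± 0.31, adjusted p = 0.838 in edgeR). The coactivator gene ncoa3 had the lowest adjusted p, with 7.25 ± 1.45 TPM in the lesioned and 10.6 ± 2.40 TPM in the unlesioned group (log2 fold change -0.67 ± 0.23, adjusted p = 0.274 in edgeR). It was the only cofactor gene at an unadjusted p under 0.05 in edgeR, where 5.48% of all genes were lower. It was also the only one whose groups did not overlap in CPM, where 3.91% of all genes were lower in that way.

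Genes known to respond to retinoic acid, mostly Hox, Meis and Nr2f transcription factor genes, gave 0 of 25 called, with 15 negative log2 fold changes and a median of -0.15, which became 12 and 0.04 under scaling by library size alone. Over all genes 52.3% were negative with TMM and 43.2% with library size alone. At an unadjusted p under 0.05 in edgeR 1 was higher and 3 were lower, where 6.07% and 5.48% of all genes were. The most abundant was meis1b, a Hox cofactor gene, with 110.2 ± 60.2 TPM in the lesioned and 193 ± 88.0 TPM in the unlesioned group (log2 fold change -0.91 ± 0.44, adjusted p = 0.482 in edgeR). The lowest adjusted p was that of meis2b, with 4.91, 13.7, 4.41 and 2.58 TPM in lesioned 1 to 4, and 21.6, 10.2, 16.2 and 14.5 TPM in unlesioned 1 to 4 (log2 fold change -1.45 ± 0.49, adjusted p = 0.274 in edgeR). Of the others under that p, tgm2b, a transglutaminase gene, had 149 ± 58.9 TPM in the lesioned and 81.0 ± 32.9 TPM in the unlesioned group (log2 fold change 0.74 ± 0.33, adjusted p = 0.428 in edgeR). The Hox genes hoxa3a (35.2 TPM in lesioned, 56.4 TPM in unlesioned) and hoxb3a (3.24 and 6.53 TPM) were lower. Their log2 fold changes were -0.78 and -1.12, with adjusted p of 0.408 and 0.279 in edgeR. The other tested Hox genes were not under that p and had log2 fold changes of either sign. Among them hoxc6a was higher (13.2 and 3.18 TPM, log2 fold change 1.98 ± 1.13, adjusted p = 0.567 in edgeR). It was the only gene of this list whose groups did not overlap in CPM, where 5.32% of all genes were higher in that way. The gene tgm2b and the Hox genes were chosen after their values were seen.

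**Figure D4:**
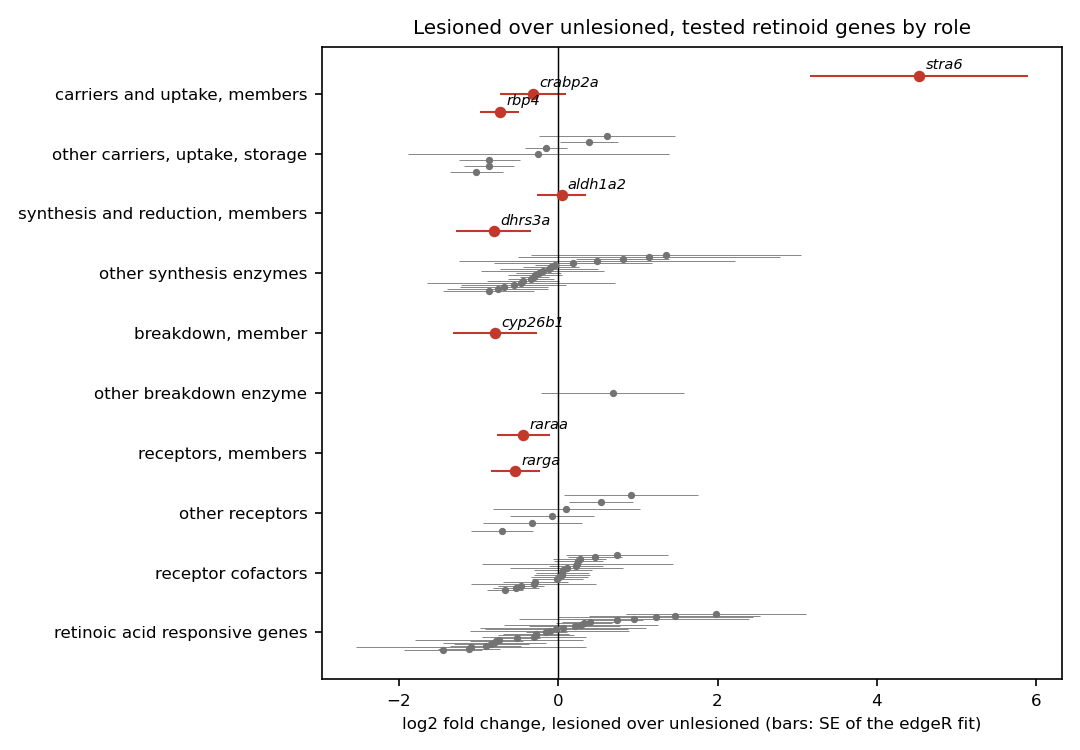
Log2 fold change of lesioned over unlesioned with the SE of the edgeR fit, for 8 tested genes of the list in red and 75 other tested retinoid pathway genes in grey, arranged by role. The point of stra6, kept for testing only through its lesioned libraries, lies apart at 4.53, and no gene shown passed an adjusted p of 0.05.

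To show which genes followed the same course over the libraries, log2 CPM was centred on its mean over the 8 libraries and compared by root mean square distance with 8072 genes of at least 10 CPM on average. The profiles most like that of rbp4 were phc2a, a Polycomb group gene (distance 0.124), ENSDARG00000100357, for which no symbol was found (0.128), and tpmt.1, a thiopurine methyltransferase gene (0.133), where the median gene lay at 0.733. Levels of phc2a were 47.9 to 93.7 CPM in the lesioned and 83.6 to 124 CPM in the unlesioned libraries, and those of tpmt.1 4.72 to 8.95 and 10.8 to 17.6 CPM. For aldh1a2 the nearest were pbxip1b (0.174), atp6ap1b (0.192) and npepps (0.193), with the median gene at 0.681. These distances are descriptions over the same 8 libraries.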

How the data were processed

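The authors deposited raw read counts per gene for 8 libraries, with no normalization. Per the submitters' processing notes, bcl2fastq 2.19.1, GSNAP and featureCounts 1.6.2 were used with the build GRCz11. Per the file headers, featureCounts 1.6.3 did the counting on the annotation of Ensembl 92, kept reads of mapping quality 1 or more and ignored strand (setting 0), so sense and antisense reads were not separated. The 92 spike-in entries were left out of all totals and fits. The authors also deposited gene length as summed exon bases, an annotation value used here to compute TPM.

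Symbols came from the reference table for 16585 identifiers. For 11063 with a symbol in capitals, RefSeq gene order (assembly GRCz12tu, used for names only) was compared over 15 neighbours on each side, with at least 2 shared required. The member rbp4 shared 21 neighbours, and 8 of the 9 genes were matched in this way.

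The 2 groups were tested with edgeR 4.0.16 (R 4.3.3; TMM, filterByExpr, robust quasi-likelihood F-test, two-sided), with Benjamini-Hochberg adjustment over 15759 genes and a threshold of 0.05. SE is the fold change divided by the root of F. The common dispersion was 0.561. On counts simulated for the same comparison over 15759 genes, the fit called 126 of 200 genes changed by 3 on the log2 scale and 1 unchanged gene. The changed genes were drawn only from genes above a minimum mean count that stra6 does not reach. The simulation thus does not cover counts as low as those of stra6, nor changes smaller than 3. Alternatives used DESeq2 1.42.0, limma 3.58.1 voom, other scalings and filters, a replicate block, a batch term, libraries 1 and 2 or 3 and 4 alone, and leaving out each library. Reads carry no molecular identifiers.

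Replicate numbers were checked by correlating deviations from group means across genes: 0.192, 0.182, 0.232 and 0.154 for numbers 1 to 4, each over the limit of 0.1. Numbers 1 and 2 were not told apart, since lesioned 1 with unlesioned 2 gave 0.199 and lesioned 2 with unlesioned 1 gave 0.182. Lesioned 3 with unlesioned 4 gave 0.0234 and lesioned 4 with unlesioned 3 gave 0.0466. Pairing by number thus rests on the data for numbers 3 and 4 only, and the labels state none. Like profiles used a prior count of 2. The genes named are all 9 members, the most abundant gene and that with the lowest adjusted p of each pathway list, the other receptors, pdgfrb, the most abundant marker of a cell type where its list bears on a result, and the 3 nearest profiles of rbp4 and aldh1a2. Genes of known bearing on a member (dhrs3b, stra6l, ttr, fabp10a, rpe65a, aldh1a3) were added after their values were seen. The members and lists were chosen with earlier results of these data known. Sequences were not analysed here.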

Additional observations from a re-analysis of the deposited data

Results flagged for a closer look

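In 6 of the 18 groups of 4 libraries checked, 1 library lay further from its nearest neighbour than Dixon's test at 95% allows. Chance flags about 1 in 20 independent groups, but the 18 groups share the same 8 libraries, so that rate is no reference for their total. In 5 of the 6 the library was unlesioned 4, and the flags of stra6 and cyp26c1 among these rest on counts near 0 in the other libraries. Unlesioned 4 had 0.282 CPM of stra6 against at most 0.0456 in the other unlesioned libraries. It had 219 CPM of aldh1a2 against 79.5 to 102, and 2.91 CPM of cyp26c1 against 0 to 0.337. Its receptor levels were 83.4 CPM of raraa against 44.99 to 50.9, and 33.3 CPM of rarga against 25.2 to 26.6. Unlesioned 4 also held the highest summed levels of all libraries for mural markers (19599 TPM), epidermal markers (4002 TPM), leukocyte markers (202 TPM, against at most 32.6 elsewhere) and pigment cell markers (147 TPM). Of the leukocyte sum, the lysozyme gene lyz alone gave 182 TPM, and most other genes of that list were higher in lesioned 4. The part of these cells in the retinoid levels of unlesioned 4 was not tested. The other was rbp4 in unlesioned 3, with 2524 CPM against 1835 to 1873; without that library the log2 fold change of rbp4 was -0.61.

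Spike-in RNA outside the gene counts was read 86 times in lesioned 3, 64 times in lesioned 4, 158 times in unlesioned 3 and 87 times in unlesioned 4, above the limit of 3 counts that a count of 0 allows. In libraries 1 and 2 of both groups it was read 0 to 3 times.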

How the results depend on the processing

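Under the 18 alternatives to the main design, 0 of the 8 retinoid genes tested and 0 of the other pathway genes tested were called; cyp26c1 could be tested in 7 of these, at log2 fold changes of 1.55 to 2.67 (2.29 without a filter on low counts) and a lowest adjusted p of 0.621 in edgeR. Over all genes, 3 were called in the main design, 517 with DESeq2, 6 without a filter on low counts, 14 with the batch term, 6 in libraries 1 and 2 alone and 0 in libraries 3 and 4 alone; leaving out 1 library gave 3 to 8, the highest without unlesioned 3. With the replicate block 2 were called over all genes, and no call at an adjusted p under 0.05 changed for a retinoid gene. For rbp4 DESeq2 gave the lowest adjusted p (0.0922) and libraries 3 and 4 alone the highest (0.976 in edgeR), with 0.131 under the replicate block (log2 fold change -0.76). The log2 fold change of rbp4 ranged from -0.93 to -0.53 and that of stra6 from 3.46 to 6.57. Of 144 values recomputed for single retinoid genes 5 changed sign: crabp2a to 0.20 in libraries 3 and 4 alone, and aldh1a2 to -0.13 there and to -0.03, -0.07 and -0.12 without unlesioned 1, 2 or 3. Leaving out 1 library moved aldh1a2 between -0.12 and 0.46; the cause was not tested. The counts of stra6 and cyp26c1 limit what can be said of them at this depth. Intervals from counting would cover counting error only.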
